A study of Mus musculus with 32 samples.

Results

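This account follows 10 genes that young neurons use to build their cytoskeleton, to grow axons and to process RNA: Tubb3, Map2, Dcx, Stmn2, Stmn3, Elavl3, Elavl4, Nefl, Nefm and Gap43. They were taken by gene symbol from the deposited table of 55492 rows, and each was found. The table gives FPKM, a fragment count divided by transcript length and library size, so levels can be set side by side between genes. All 10 were read in all 32 poly(A) RNA libraries of the series, made from mouse embryonic stem cells and the retinal organoids they gave rise to.

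There were 16 groups of 2 libraries, made of 4 kinds of culture at days 0, 2, 4 and 6. WT is the Rx:GFP line. KO is the line labelled Mettl3 KO; Mettl3 encodes the catalytic subunit of the complex that writes N6-methyladenosine on RNA. The 2 remaining kinds, called no Dex and Dex here, are the Mettl3 KO line overexpressing METTL3 joined to a domain the labels name GRBD, kept without or with dexamethasone (Dex) at 10 µM. By the labels the fusion protein is cytosolic without Dex and moves to the nucleus with it. Day 0 libraries come from stem cells, and those of days 2 to 6 from organoids in medium with AGN at 0.1 µM, in all 4 kinds of culture. By their labels KO, no Dex and Dex share the Mettl3 KO background. Dex was given to the fusion line alone, so an action of Dex apart from the fusion protein cannot be told apart from the fusion's move. Some day 0 libraries are labelled as Dex treated although the protocol lists Dex for 2, 4 and 6 days; the labels were followed. Whether a line is 1 clone, and whether the 2 libraries of a group came from separate cultures, is not stated, so p-values measure the spread between libraries, which may be technical.

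Newborn neurons assemble microtubules from a neuronal beta-tubulin, bundle and anchor them with microtubule-associated proteins, and keep growth cones plastic with stathmins and growth-associated proteins. RNA-binding proteins of the Elavl (Hu) family stabilise and splice neuronal transcripts, and neurofilaments fill the axon as it matures. In the retina the earliest cells to switch on such genes are ganglion cells, born after the eye field and optic vesicle have formed.

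RefSeq promoter windows of GRCm38.p6, running from 250 bases before to 50 bases after a start site, were matched for 6 of the 10 genes. Stmn2, Nefl, Nefm and Gap43 were not matched. The upstream 250 bases are shown for 5 genes that contrast in their levels at day 0, described further on: Tubb3 was abundant in stem cells, Stmn3 and Elavl3 were present there, and Dcx and Elavl4 were near their lowest. Each is written 5′ to 3′ on the gene's strand. Capitals mark CAGCTG and CAGATG, E-boxes of the kind read by proneural basic helix-loop-helix factors, and TATAAA, the TATA box, each searched on both strands without overlap between them (CATCTG and TTTATA are the reverse forms).
Tubb3 (chr8:123411303-123411552, plus strand): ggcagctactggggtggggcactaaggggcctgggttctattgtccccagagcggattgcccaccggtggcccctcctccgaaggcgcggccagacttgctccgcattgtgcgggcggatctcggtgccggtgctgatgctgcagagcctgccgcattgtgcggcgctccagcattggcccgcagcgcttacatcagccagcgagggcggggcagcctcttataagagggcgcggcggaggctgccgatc
Stmn3 (chr2:181314501-181314750, minus strand): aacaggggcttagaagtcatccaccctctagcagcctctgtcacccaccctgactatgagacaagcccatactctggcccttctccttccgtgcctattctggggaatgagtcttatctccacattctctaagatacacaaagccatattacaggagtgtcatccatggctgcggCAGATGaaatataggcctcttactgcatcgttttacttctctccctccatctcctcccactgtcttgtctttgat
Elavl3 (chr9:22052024-22052273, minus strand): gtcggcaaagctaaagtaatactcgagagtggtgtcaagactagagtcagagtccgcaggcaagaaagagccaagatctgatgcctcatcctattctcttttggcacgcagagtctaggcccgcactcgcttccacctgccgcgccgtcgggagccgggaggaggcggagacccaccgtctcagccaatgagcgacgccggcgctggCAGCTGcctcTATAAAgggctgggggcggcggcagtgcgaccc
Dcx (chrX:143933220-143933469, minus strand): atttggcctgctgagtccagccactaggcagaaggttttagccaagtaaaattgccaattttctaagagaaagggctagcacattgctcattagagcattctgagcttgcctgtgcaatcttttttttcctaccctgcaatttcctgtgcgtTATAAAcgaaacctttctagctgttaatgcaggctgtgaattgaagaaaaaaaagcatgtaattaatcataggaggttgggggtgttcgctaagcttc
Elavl4 (chr4:110287512-110287761, minus strand): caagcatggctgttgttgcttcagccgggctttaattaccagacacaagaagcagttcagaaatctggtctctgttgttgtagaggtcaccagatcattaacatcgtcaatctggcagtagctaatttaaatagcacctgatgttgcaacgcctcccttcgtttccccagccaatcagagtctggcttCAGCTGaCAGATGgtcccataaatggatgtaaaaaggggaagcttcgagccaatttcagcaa

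The windows differ in CG content. Tubb3 held 26 CG pairs in its 300 bases and Elavl3 held 29, against a median of 7 over all 32851 windows. Stmn3 held 6, the Elavl4 window shown held 6 and Dcx held 3. Map2, matched but not shown, held 37, although it measured 0.11 to 1.56 FPKM at day 0. A relation of CG pairs to level was not tested. Elavl4 has 4 windows, and the one at its outermost start held 23 CG pairs and no motif. Among all windows, 16.3% held CAGCTG, 17.15% held CAGATG and 13.62% held TATAAA, so a match in a given gene is a description of these letters only, and no match says nothing of a factor.

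The estimated depth of a library was 28.9 M fragments at the lowest (M, mega), 38.3 M at the median and 54.8 M at the highest, and the 2 libraries of a group correlated at r between 0.9922 and 0.9955 over 16276 genes. Mettl3 RNA was not lower in the KO libraries: at day 0 it measured 35.0 ± 2.58 FPKM (SD, n = 2) in WT and 43.4 ± 0.672 FPKM in KO, and 35.7 ± 0.863 against 37.6 ± 0.382 FPKM at day 6. Gene-level values cannot show a small deletion, so they do not check the KO label. In no Dex and Dex, Mettl3 stood at 70.2 ± 2.31 and 75.03 ± 0.0354 FPKM at day 0. Rax, the eye-field transcription factor that defines early retinal organoids, reached 118 ± 4.71 FPKM in WT and 54.7 ± 1.15 FPKM in Dex at day 6, but 0.30 ± 0.0283 FPKM in KO and 0.91 ± 0.170 FPKM in no Dex, so the organoid label of those last groups was not matched by Rax.

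A gene was tested when 2 or more of the 32 libraries reached 1 FPKM, and all 10 genes passed. Dcx passed only through the KO and no Dex libraries of day 6, 4 in all, and Elavl4 only through 8 libraries, all of day 6. Their day 6 differences were therefore built into the filter, and counts that use day 6 are also given without Dcx and without both, except under the changed settings at the end. Changes are differences of log2(FPKM + 1) from 1 limma fit of all libraries, given with the standard error (SE), and "called" means a Benjamini-Hochberg adjusted p under 0.05 over the 16276 genes tested. The added 1 understates the change of genes near or under 1 FPKM. In bulk RNA, fewer cells that use a gene and less RNA per cell cannot be told apart.

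At day 0 the genes were not uniformly low, although the cells were stem cells. Tubb3, the beta-tubulin used as a standard marker of neurons, and Stmn2, a stathmin of growing axons, each exceeded 100 FPKM in all 8 day 0 libraries. Tubb3 measured 152 and 159.5 FPKM in WT, 197 and 183 FPKM in KO, 205 and 211 FPKM in no Dex, and 160.5 and 163 FPKM in Dex. Stmn2 measured 179.9 and 176 FPKM in WT, 108 and 109 FPKM in KO, 105 and 106 FPKM in no Dex, and 144 and 145 FPKM in Dex. The 4 day 0 groups were the 4 highest of all 16 for Stmn2, and its WT libraries stood above every other library.

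The other 8 genes were lower at day 0. Stmn3, a second neuronal stathmin, lay between 5.44 and 6.20 FPKM in the 8 libraries, and Elavl3, a neuronal Hu protein, between 3.12 and 4.83 FPKM. Gap43, a growth cone protein, lay between 3.46 and 7.59 FPKM. Nefl, the light neurofilament chain, lay between 2.79 and 3.87 FPKM, and Nefm, the medium chain, between 0.30 and 0.80 FPKM. Elavl4, another Hu protein, lay between 0.30 and 0.66 FPKM, and Map2, which bundles dendritic microtubules, between 0.11 and 1.56 FPKM. Dcx, doublecortin, a microtubule-binding protein of migrating neurons, was at or below 0.02 FPKM in all 8, with both no Dex libraries listed at 0. At the depth of these libraries 3 fragments on Dcx are worth 0.0044 to 0.0084 FPKM, a limit that covers counting error only.

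**Figure D1:**
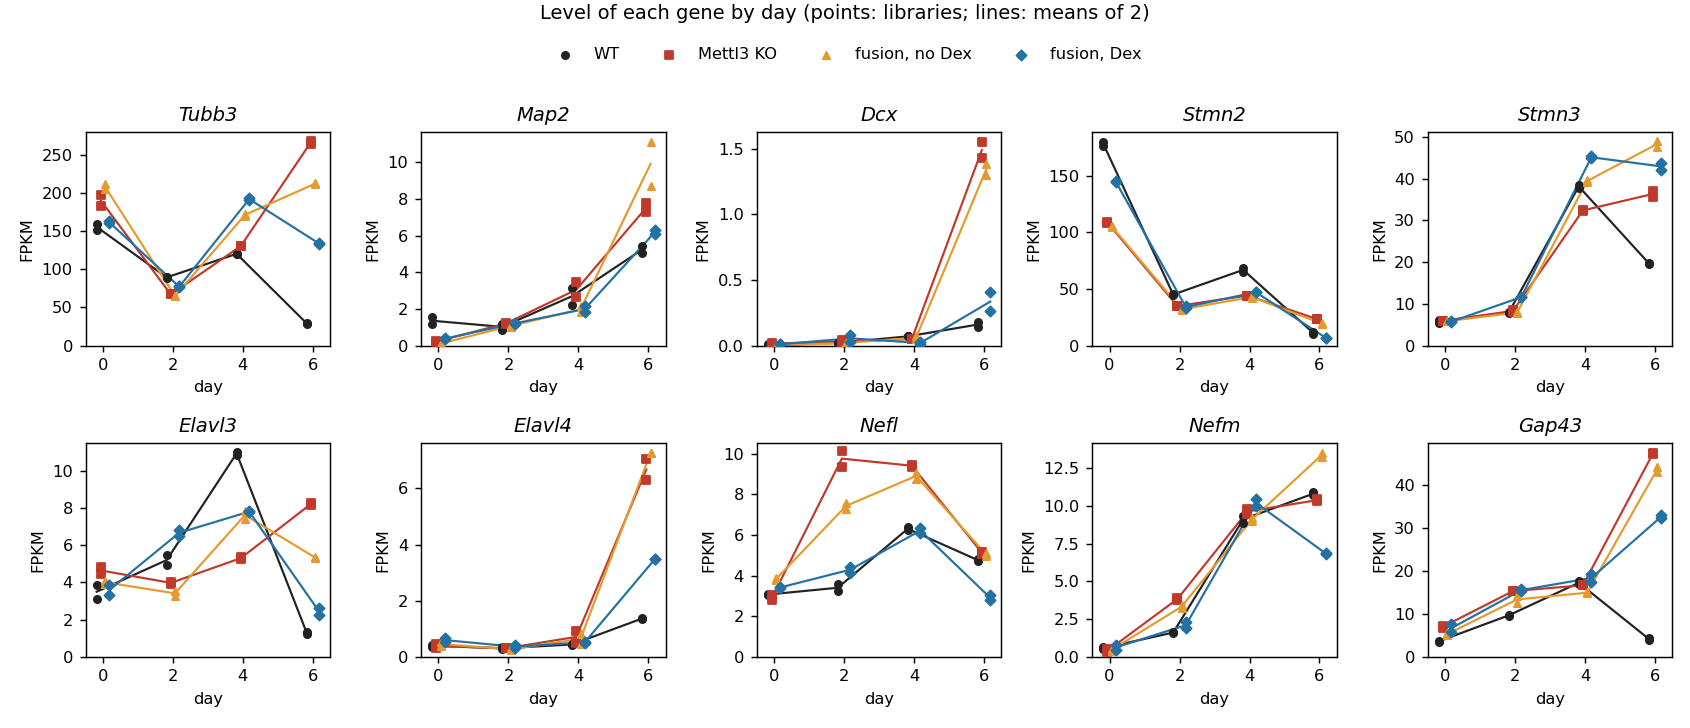
FPKM of each of the 10 genes (y axis, linear, each panel with its own range) against day (x axis) in WT, Mettl3 KO and the fusion line without and with Dex; points are libraries and lines join the means of 2. Stmn2 started at its highest level at day 0 in every line, Tubb3 dipped at day 2, and the WT line of Tubb3, Stmn3, Elavl3 and Gap43 turned down between days 4 and 6 to 29.2, 19.7, 1.31 and 4.20 FPKM.

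In WT the genes did not rise together. Between day 0 and day 6, 6 of 10 genes rose and 3 fell, where 78.1% of all tested genes were called in either direction; without Dcx 5 of 9 rose, and without Dcx and Elavl4 4 of 8. The 3 that fell were Tubb3, Stmn2 and Elavl3. Tubb3 went from 152 and 159.5 FPKM at day 0 to 88.6 and 90 at day 2, 121 and 119.9 at day 4, and 29.5 and 28.9 at day 6. Its day 6 libraries were the lowest of all 32, and the fall from day 0 was 5.33-fold (log2 change −2.37, SE 0.03, limma adjusted p = 8.1e-23).

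Stmn2 in WT went from 179.9 and 176 FPKM at day 0 through 45.9 and 44.2 at day 2 and 68.8 and 64.8 at day 4 to 11.95 and 10.6 at day 6. That fall was 15.8-fold between days 0 and 6, and no library of one day overlapped those of another. Elavl3 in WT peaked at day 4, with 10.88 and 11 FPKM, the highest level of any group, and had 1.36 and 1.25 FPKM at day 6, the lowest of any group. Gap43 showed the same shape, from 3.75 and 3.46 FPKM at day 0 to 16.9 and 17.6 at day 4 and back to 4.49 and 3.90 at day 6.

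Between days 4 and 6 most of the genes fell in WT, and most rose in KO and no Dex; the difference between lines in this step was not tested. In WT, 6 of 10 genes fell in that step and 3 rose, where 66.7% of all tested genes were called and the median gene moved by 0.10. Those that fell were Elavl3 (log2 change −2.37), Stmn2 (−2.47), Tubb3 (−2.01), Gap43 (−1.82), Stmn3 (−0.92) and Nefl (−0.34). In KO over the same step 7 rose and 2 fell (65.3% of all tested genes called), among them Tubb3, which rose by 1.02, and Gap43, which rose by 1.45. In no Dex 7 rose and 3 fell (67.9% called), and in Dex 4 rose and 5 fell (65.1% called). Without Dcx and Elavl4, of 8 genes 2 rose and 6 fell in WT, 5 and 2 in KO, 5 and 3 in no Dex, and 2 and 5 in Dex; without Dcx alone, of 9, the counts were 3 and 6, 6 and 2, 6 and 3, and 3 and 5. The genes that rose from day 4 to day 6 in all 4 lines were Map2 and Elavl4; in WT they rose by 0.77 and 0.72. Elavl4 had passed the filter through day 6 libraries alone. Dcx was called higher in KO, no Dex and Dex, and its WT change of 0.12 (limma adjusted p = 0.060) was called with 0.1 added in place of 1 (0.61, adjusted p = 0.020) or with no filter on low values (adjusted p = 0.019). The third riser in WT, Nefm (0.22), was not called without replicate 1 of day 4 or without either replicate of day 6, nor under median-of-ratios rescaling (0.12, limma adjusted p = 0.22) or with 0.1 added in place of 1 (0.24, adjusted p = 0.24).

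Over days 0 to 6 more of the genes rose in KO and no Dex than in WT. In KO 9 of 10 rose and Stmn2 fell (80.4% of all tested genes called), in no Dex 8 rose and Stmn2 fell (81.9% called), and in Dex 6 rose and 4 fell (80.4% called). The 4 that fell in Dex were Tubb3, Stmn2, Elavl3 and Nefl. Without Dcx, of 9 genes 8 rose and 1 fell in KO, 7 and 1 in no Dex, and 5 and 4 in Dex; without Dcx and Elavl4, of 8, it was 7 and 1, 6 and 1, and 4 and 4. In no Dex the Tubb3 change of 0.03 was not called; rescaling the libraries by their median ratio over genes, which lowers the median of all genes in that comparison from 0.17 to 0, turned it to a called fall of −0.21 and ended the call of Elavl3 (0.15). Nefm rose in every line, by 2.91 in WT, 3.03 in KO, 3.30 in no Dex and 2.28 in Dex.

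At day 6, 8 of the 10 genes were called higher in KO than in WT, and none was called lower. Over all tested genes 65.1% were called, 30.9% higher and 34.2% lower. Without Dcx 7 of 9 were called higher and without Dcx and Elavl4 6 of 8, and the median change of the 10 was 1.04, against −0.03 over all tested genes. On the log2(FPKM + 1) scale Gap43 and Tubb3 differed most, by the ratio of means Gap43 (11.3), Dcx (9.31) and Tubb3 (9.12), and the neurofilament genes Nefl and Nefm were not called.

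Tubb3 measured 268 and 264 FPKM in KO at day 6, the highest of all 32 libraries, against 29.5 and 28.9 FPKM in WT. The ratio of means was 9.12 (log2 change 3.15, SE 0.03, limma adjusted p = 2.0e-23). Tubb3 lies on chromosome 8, whose 858 tested genes stood above those of other chromosomes by a median of 0.05, 0.16, 0.28 and 0.40 in KO against WT at days 0, 2, 4 and 6. Their part in the Tubb3 values was not tested further than by centring chromosome 8, which left 2.77 at day 6. At day 4 centring turned a called Tubb3 change of 0.12 to −0.19, and rescaling left 0.01, not called. In WT from day 0 to day 6 the chromosome 8 median stood −0.28 from that of other chromosomes. Centring left a Tubb3 change of −2.06 there.

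Map2 measured 7.29 and 7.76 FPKM in KO and 5.41 and 5.06 FPKM in WT at day 6. Its libraries did not overlap, and its change of 0.45 (SE 0.12, limma adjusted p = 0.0034) was the smallest of the 8. Dcx measured 1.55 and 1.43 FPKM in KO and 0.14 and 0.18 FPKM in WT, a ratio of means of 9.31. On the log2(FPKM + 1) scale that was 1.10 (SE 0.05), and with 0.1 added in place of 1 it was 2.62. Dcx stayed under 2 FPKM even where it was highest.

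Both stathmins were higher in KO at day 6. Stmn2 measured 23.4 and 23.1 FPKM in KO and 11.95 and 10.6 FPKM in WT, a change of 0.99 (SE 0.04, limma adjusted p = 4.1e-14). Since Stmn2 fell with time in every line, this difference lay between levels that were both far below day 0. Stmn3 measured 35.5 and 37.1 FPKM in KO and 19.9 and 19.6 FPKM in WT, a change of 0.85 (SE 0.04).

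The Hu protein genes differed more. Elavl3 measured 8.25 and 8.18 FPKM in KO and 1.36 and 1.25 FPKM in WT, a ratio of 6.30 (log2 change 2.00, SE 0.07, limma adjusted p = 8.6e-15). Elavl4 measured 7.04 and 6.31 FPKM in KO and 1.37 and 1.36 FPKM in WT, a ratio of 4.89 (log2 change 1.70, SE 0.10). At day 4 Elavl3 had been lower in KO than in WT, by −0.92, so its difference changed sign within 2 days.

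The neurofilaments stood apart from these. Nefl measured 5.07 and 5.18 FPKM in KO and 4.71 and 4.82 FPKM in WT at day 6, a change of 0.09 (SE 0.05, limma adjusted p = 0.12). Nefm measured 10.5 and 10.3 FPKM in KO and 10.9 and 10.7 FPKM in WT, a change of −0.05 (SE 0.08, limma adjusted p = 0.60). Nefl and Nefm lie on opposite strands of chromosome 14 and share 1108 exon bases in the annotation; whether counting used strand is not stated, and reads from the shared bases cannot be told apart. Gap43 measured 47.7 and 47.3 FPKM in KO against 4.49 and 3.90 FPKM in WT, the largest log2 change of the 10 (3.22, SE 0.08, limma adjusted p = 3.7e-17).

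**Figure D2:**
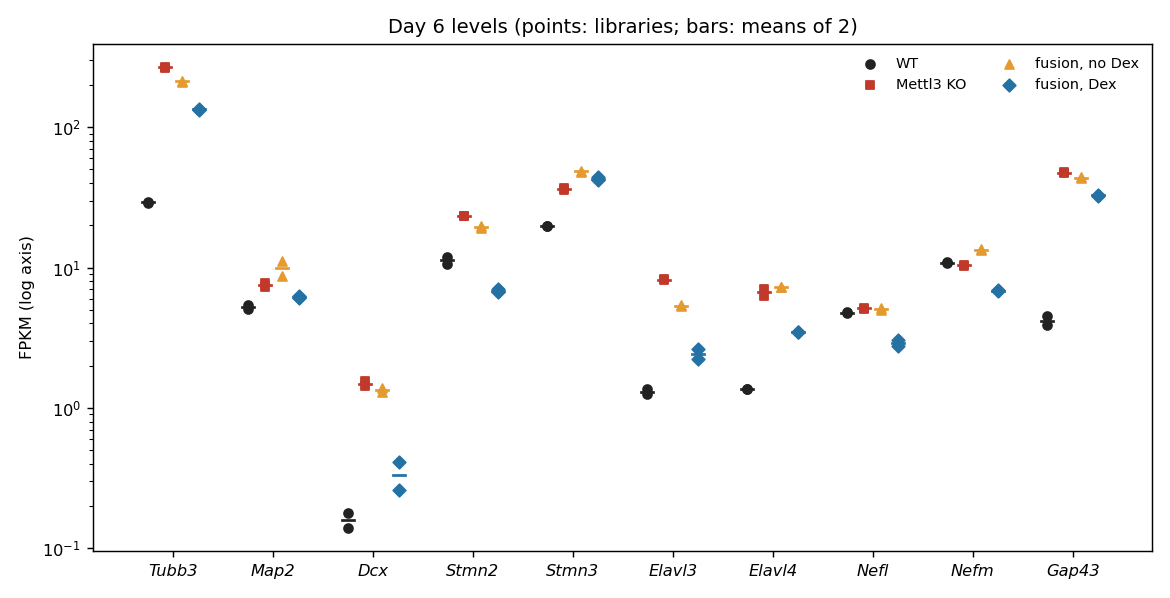
FPKM at day 6 (y axis, log scale) for each gene (x axis) in WT, Mettl3 KO and the fusion line without and with Dex; points are libraries and bars are means of 2. KO and no Dex stand above WT for most genes, Nefl and Nefm of WT and KO lie close together, and Dex lies below no Dex for all 10, below WT for Stmn2, Nefl and Nefm.

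Before day 6 the genes differed between KO and WT in both directions. At day 0, 3 were higher and 2 lower (48.2% of all tested genes called), at day 2, 3 and 3 (58.9% called), and at day 4, 2 and 3 (60.5% called). Stmn2 was lower in KO on each of these days, by −0.71, −0.36 and −0.59. Map2 was lower at day 0, with 0.19 and 0.24 FPKM in KO against 1.56 and 1.15 FPKM in WT. With only the compared groups in the fit, the day 0 count was 3 in place of 5: Tubb3 (adjusted p = 0.052) and Elavl3 (adjusted p = 0.14 by limma) were no longer called.

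The neurofilaments, not called at day 6, were the genes that differed most at day 2. Nefl measured 10.2 and 9.37 FPKM in KO at day 2 and 3.58 and 3.22 FPKM in WT, a change of 1.29 (SE 0.05, limma adjusted p = 6.1e-14). The 4 KO libraries of days 2 and 4 were the 4 highest for Nefl in the series. Nefm measured 3.80 and 3.87 FPKM in KO and 1.66 and 1.56 FPKM in WT at day 2, a change of 0.89 (SE 0.08). By day 4 the Nefl change was 0.51 and that of Nefm, 0.07, was not called.

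The change between days 0 and 6 was tested against that of WT as an interaction. As a signed value it was higher in KO for 8 of 10 genes and lower for none, where 56.9% of all tested genes were called, 31.1% higher and 25.8% lower. Tubb3 and Elavl3 fell in WT and rose in KO, and Stmn2 fell in both. Map2 started lower in KO at day 0 (−0.95), which enters its value. Without Dcx it was 7 of 9 genes, and without Dcx and Elavl4 6 of 8. Nefl (0.15, limma adjusted p = 0.078) and Nefm (0.12, limma adjusted p = 0.40) were not called.

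At day 6 the fusion line without Dex differed from KO in both directions and by small amounts. Against KO, 3 genes were higher and 3 lower, where 49% of all tested genes were called; neither Dcx nor Elavl4 was among the 6. Stmn3 (0.40), Nefm (0.34) and Map2 (0.35) were higher, and Elavl3 (−0.54), Tubb3 (−0.33) and Stmn2 (−0.24) were lower. Tubb3 measured 211 and 213 FPKM without Dex, against 268 and 264 FPKM in KO, and Elavl3 measured 5.39 and 5.29 against 8.25 and 8.18 FPKM.

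Dcx, Elavl4, Nefl and Gap43 were not called between no Dex and KO at day 6. Dcx measured 1.30 and 1.38 FPKM and Elavl4 measured 7.26 and 7.25 FPKM without Dex. The Map2 call rested on single libraries: no Dex measured 11.1 and 8.72 FPKM, and without its replicate 1 the change was 0.19 (limma adjusted p = 0.31). It was also lost without KO replicate 1 (0.31, adjusted p = 0.13) or KO replicate 2 (0.39, adjusted p = 0.053), and with 0.1 added in place of 1 both Map2 and Nefm were not called. At days 0, 2 and 4 the counts higher and lower were 2 and 1 (49.1% of all tested genes called), 0 and 2 (37% called), and 3 and 1 (26.7% called); at day 2 the count fell from 2 to 1 without either KO library or without no Dex replicate 2, as Stmn2 was then not called.

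With Dex, all 10 genes were lower at day 6 than without it. Over all tested genes 42.7% were called, 23.8% higher and 19% lower. Without Dcx it was 9 of 9 and without Dcx and Elavl4 8 of 8, and the median change of the 10 was −0.74, against 0.01 over all tested genes. On the log2(FPKM + 1) scale the change ran from −0.17 for Stmn3 to −1.39 for Stmn2, while by the ratio of means no Dex stood 4.00 times above Dex for Dcx and 2.85 times for Stmn2, and in no gene did a Dex library reach the level of a no Dex library.

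Among the microtubule genes, Tubb3 measured 134 and 133 FPKM with Dex and 211 and 213 FPKM without (log2 change −0.66, SE 0.03, limma adjusted p = 7.6e-13). Map2 measured 6.07 and 6.28 FPKM with Dex and 11.1 and 8.72 FPKM without (−0.60, SE 0.12); with only these groups in the fit its adjusted p was 0.051. Dcx measured 0.26 and 0.41 FPKM with Dex and 1.30 and 1.38 FPKM without, levels under 2 FPKM in both.

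The stathmins moved to different extents. Stmn2 measured 6.99 and 6.72 FPKM with Dex, the lowest of all 32 libraries, and 19.2 and 19.9 FPKM without (−1.39, SE 0.04, limma adjusted p = 2.8e-15). Stmn3 measured 42.0 and 43.9 FPKM with Dex and 49.0 and 47.6 FPKM without (−0.17, SE 0.04, limma adjusted p = 0.0030). Elavl3 measured 2.24 and 2.62 FPKM with Dex and 5.39 and 5.29 FPKM without (−0.89, SE 0.07). Elavl4 measured 3.48 and 3.47 FPKM with Dex and 7.26 and 7.25 FPKM without (−0.88, SE 0.10).

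The neurofilaments, which had not been called between KO and WT, were lower with Dex. Nefl measured 2.78 and 3.03 FPKM with Dex and 4.97 and 5.11 FPKM without (−0.63, SE 0.05, limma adjusted p = 4.1e-09). Nefm measured 6.82 and 6.89 FPKM with Dex and 13.3 and 13.5 FPKM without (−0.87, SE 0.08, limma adjusted p = 6.8e-08). Gap43 measured 32.4 and 33.1 FPKM with Dex and 44.4 and 43.1 FPKM without, a smaller change (−0.41, SE 0.08, limma adjusted p = 4.1e-04).

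**Figure D3:**
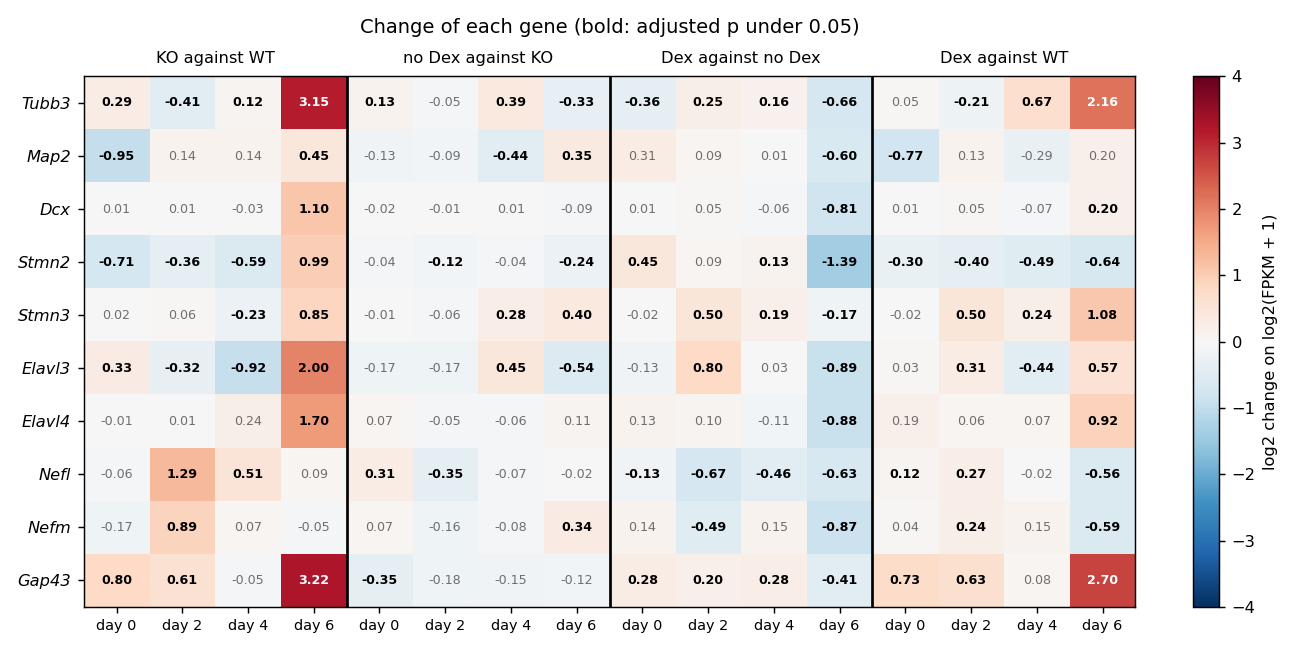
Log2 change of each gene (rows) on the log2(FPKM + 1) scale in 4 comparisons at days 0, 2, 4 and 6 (columns); red is higher, blue is lower, and bold marks an adjusted p under 0.05. The day 6 columns hold 8 genes higher in KO against WT and 10 lower in Dex against no Dex, while earlier columns hold both directions.

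Set beside WT at day 6, the Dex cultures differed in 9 of the 10 genes. Against WT 6 genes were higher, 3 were lower and Map2 was not called (0.20, SE 0.12, limma adjusted p = 0.17), where 61.4% of all tested genes were called; without Dcx 5 of 9 were higher, and without Dcx and Elavl4 4 of 8. Those higher were Gap43 (2.70), Tubb3 (2.16), Stmn3 (1.08), Elavl4 (0.92), Elavl3 (0.57) and Dcx (0.20). Those lower were Stmn2 (−0.64), Nefm (−0.59) and Nefl (−0.56). Genes of chromosome 8 stood above others by a median of 0.39 in this comparison, and centring them left Tubb3 at 1.795. In Dex against WT at day 4 centring left Tubb3 at 0.39 in place of 0.67. The Dcx call was lost without Dex replicate 2, where the change was 0.12, and with only the compared groups in the fit. This comparison shares its Dex libraries with the one against no Dex, and its WT libraries with KO against WT.

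The order of the day 6 groups thus differed by gene. For Tubb3, Dcx, Stmn2, Elavl3 and Gap43 KO was highest and no Dex next, with no overlap of libraries, although Dcx and Gap43 were not called between them. For Nefl the libraries of KO and no Dex overlapped above those of WT. For Elavl4, Map2, Stmn3 and Nefm no Dex was highest. The lowest group was WT for Tubb3, Map2, Dcx, Stmn3, Elavl3, Elavl4 and Gap43, and Dex for Stmn2, Nefl and Nefm.

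At days 0, 2 and 4 the Dex and no Dex libraries differed in both directions. The counts higher and lower were 2 and 2 at day 0 (43.4% of all tested genes called), 4 and 2 at day 2 (44.3% called) and 4 and 1 at day 4 (40.2% called). Elavl3 was higher with Dex at day 2 by 0.80, with 6.83 and 6.51 FPKM against 3.55 and 3.27 FPKM, the reverse of its day 6 direction. Nefl was lower with Dex on days 2 and 4, by −0.67 and −0.46. Stmn2 was higher with Dex at day 0 by 0.45, before organoid culture began.

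Several of these early calls were lost when 1 library was left out. Without no Dex replicate 1 the day 0 count fell from 4 to 2, as Gap43 and Nefl were not called. Nefl (−0.13) was lost whichever of the 4 libraries was left out. Gap43 at day 0 had a change of 0.28, which was 0.11 without Dex replicate 1 and 0.46 without Dex replicate 2. Without Dex replicate 2 the day 4 count fell from 5 to 3, as Gap43 and Stmn2 were not called. Gap43 at day 2 (0.20) was 0.13 and not called without no Dex replicate 1. That call was also lost without either Dex replicate, with 0.1 added in place of 1 and with no filter on low values. Dex against WT at days 0, 2 and 4 gave 2 higher and 2 lower (49.8% of all tested genes called), 5 and 2 (29.4% called) and 2 and 2 (44.7% called). In that comparison Nefm at day 2 (0.24) was 0.15 and not called without Dex replicate 1. It was also not called without either WT replicate, with 0.1 added in place of 1, with no filter or with the compared groups alone.

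Because day 0 levels already differed, the change between days 0 and 6 was tested as an interaction with Dex. As a signed value it was lower with Dex for 9 of 10 genes and higher for none, where 48.7% of all tested genes were called, 22.7% higher and 25.9% lower. Without Dcx it was 8 of 9 genes, and without Dcx and Elavl4 7 of 8. Stmn3 (−0.14, SE 0.06, limma adjusted p = 0.050) fell just outside the threshold. The largest was Stmn2 (−1.84), which started higher and ended lower with Dex.

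Over the 16 group means the 10 genes did not follow 1 pattern. Of the 45 pairs of genes, 12 had a Pearson r below 0 and the median was 0.342; these points share libraries and time, and r is a description. Stmn2 accounted for 7 of the 12 pairs. Dcx and Elavl4 had the highest r (0.956), but both stayed under 1 FPKM in every library before day 6. Their r thus rests on the day 6 groups through which they passed the filter. Stmn3 and Nefm came next (0.922), while Map2 and Stmn2 ran opposite (−0.760). Likeness to the mean standardised profile of the 10 was taken among 11566 genes whose highest group mean reached 5 FPKM. That profile includes Dcx and Elavl4 and was highest in KO (1.16) and no Dex (1.08) at day 6. Genes could thus enter through the groups where the profile peaks. Gria3 measured 5.73 FPKM in KO and 4.895 in no Dex at day 6. Most alike were Gria3, a glutamate receptor subunit (0.939), Hes3, a repressor of the Hes family (0.921), and Gal3st4 (0.916). Plekhg1, Irx1, Insm1, Col6a2, Pax3, Carhsp1 and Syt7 lay between 0.912 and 0.899.

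Other genes of the same families gave mixed values at day 6. Tubb2b, a beta-tubulin of neural progenitors and neurons, was higher in KO than in WT at day 6 (1.78), but its change with Dex was 0.02 and not called (limma adjusted p = 0.58), with 470 ± 6.52 FPKM without Dex and 477 ± 0.573 FPKM with it. Nefh, the heavy neurofilament chain, was lower in KO than in WT (−0.70). Ina, the neurofilament protein internexin, was higher in KO (0.92) and lower with Dex (−0.84). Elavl2, the remaining neuronal Hu gene, was not called in KO (0.03, limma adjusted p = 0.76) and was lower with Dex (−0.46).

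Of 24 other neuronal cytoskeleton and growth cone genes tested, 13 were higher and 7 lower in KO at day 6 (median 0.20), and 4 were higher and 8 lower with Dex (median −0.05). Of 11 other neuronal RNA-binding protein genes, 7 were higher and 1 lower in KO (0.38), and 5 were lower and none higher with Dex (−0.18). Srrm4, a neuronal splicing activator, was among them, with changes of 1.38 and −0.83. Of 12 synapse and excitability genes, 7 were higher and 3 lower in KO, and 3 were higher and 3 lower with Dex.

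The day 6 counts of neuronal differentiation transcription factors carry a limit, since the filter bears on both of their directions. Of 19 tested, 17 were higher and none lower in KO (median 1.36), and 1 was higher and 17 lower with Dex (−0.74). Of the 22 listed, 6 reached 1 FPKM in each WT library of day 6 and 11 in each Dex library. In KO it was 17 and in no Dex 17 to 18. For factors that passed the filter only through KO and no Dex libraries, both directions were built in. How many did so was not counted. The factors tested include the proneural factor Neurog1 (3.90 and −1.17) and Pou4f1 (3.15 and −0.80), a factor of sensory neurons. The factor higher with Dex was Neurog2 (0.81). Of 12 neural progenitor markers, 8 were higher and 2 lower in KO (0.26), and 4 were higher and 1 lower with Dex (0.01). For REST, the repressor of neuronal genes, and its corepressors the counts were 1 higher and 4 lower of 8 in KO, and 3 and 3 with Dex.

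**Figure D4:**
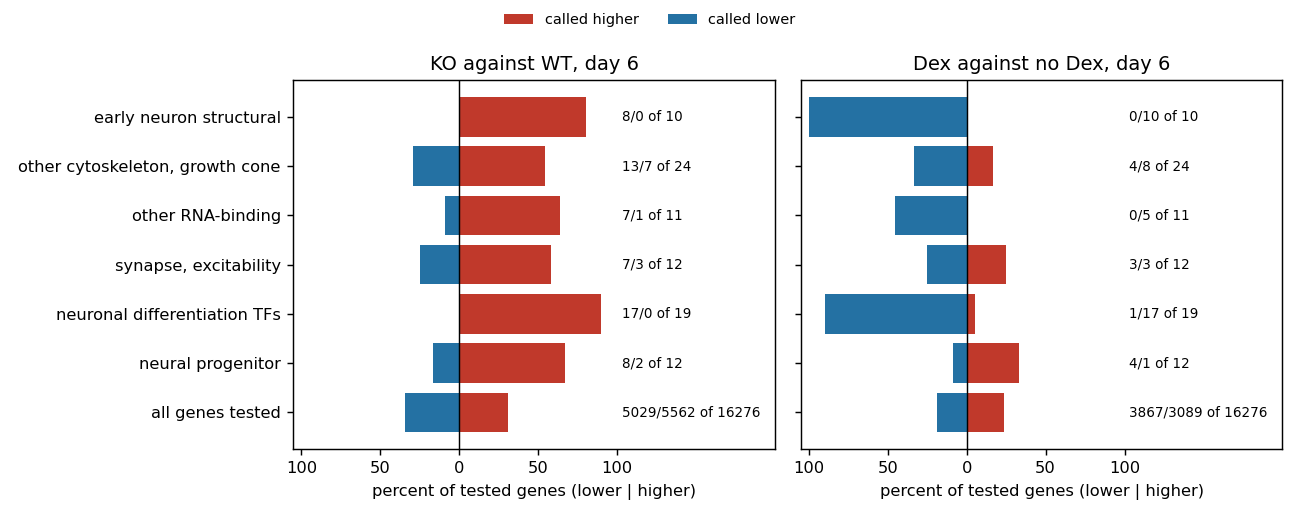
Percent of tested genes called lower (blue, to the left) and higher (red, to the right) at day 6 for KO against WT (left) and Dex against no Dex (right), for the 10 genes, 5 other lists and all genes tested; the numbers give higher/lower of tested. Most differentiation factors were called higher in KO and lower with Dex, directions that the filter can build in. The cytoskeleton, synapse and progenitor lists hold both directions. How many of the factors passed the filter only through KO and no Dex libraries was not counted.

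Markers of other cell types also moved between these groups, where 65.1% of all tested genes were called in KO and 42.7% with Dex at day 6. Of 8 tested neural crest and peripheral neuron markers of the 11 listed, 7 were higher and 1 lower in KO at day 6 (median 1.94), and 5 were lower and none higher with Dex (−1.01). In each WT library of day 6, 1 of the 11 reached 1 FPKM. For markers that passed the filter only through KO and no Dex libraries, both directions were built in. How many did so was not counted. The summed level of the 11 was 7.65 to 7.90 FPKM in WT, 59.5 to 59.7 in KO, 66.0 to 67.5 in no Dex and 27.4 to 27.8 in Dex. Sox10, a transcription factor of neural crest, had changes of 3.30 in KO and −1.21 with Dex, the direction of most of the list. Which libraries let it pass the filter was not examined, and 1 marker went the other way in KO. Crest-derived and retinal neurons use the same structural genes, and the part of these cells in the results was not tested.

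Pluripotency markers stood at a summed 225 to 235 FPKM in WT at day 6, against 59.1 to 61.0 in KO, 65.2 to 68.8 in no Dex and 77.4 to 81.4 in Dex, and all 8 were lower in KO; with Dex 2 were higher and 3 lower. Of 7 endodermal markers 6 were lower in KO (median −2.24), with Afp listed at 0 in both libraries of KO, no Dex and Dex, and 1, Cxcr4, was higher, with 44.4 ± 1.95 FPKM in KO and 6.24 ± 0.0636 FPKM in WT (SD, n = 2). With Dex 5 of the 7 were higher and 1 lower, and the 7 summed to 52.4 to 53.1 FPKM in WT, 43.6 to 46.6 in KO, 31.2 to 35.4 in no Dex and 25.4 to 26.6 in Dex. Mesodermal and muscle markers summed to 14.9 to 15.5 FPKM in WT and 4.09 to 4.68 in KO; 2 of 4 were higher and 2 lower in KO, and none was called with Dex. Retinal ganglion and photoreceptor markers summed to 40.6 to 43.7 FPKM in WT, 31.3 to 32.4 in KO, 31.4 to 31.5 in no Dex and 44.3 to 44.4 in Dex; Rbpms made up most of that sum in each of these 8 libraries, and Rcvrn was listed at 0 in 7 of them and at 0.03 FPKM in the other, of WT. Of 5 of these tested, 2 were higher and 1 lower in both comparisons. Beside the counts of these 4 lists, 65.1% of all tested genes were called in KO and 42.7% with Dex. The part of these cell types in the members' results was not tested.

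By position (GRCm38, GENCODE M21), Tubb3 (ENSMUSG00000062380) spans chr8:123411424-123422015, Map2 chr1:66175273-66442583, Dcx chrX:143855842-143933311 and Stmn2 chr3:8509360-8561606. Stmn3 spans chr2:181306459-181314500, Elavl3 chr9:22015005-22052023 and Elavl4 chr4:110203722-110351909. Nefl spans chr14:68083863-68089095, Nefm chr14:68082590-68124846 and Gap43 chr16:42248442-42340651. All are protein coding. Beside the neurofilament pair, Map2 shares 124 exon bases with the antisense gene Gm10558 and Elavl3 shares 256 with Gm49318 on its own strand, so a part of their fragments could belong to those genes.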

How the data were processed

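Polyadenylated RNA of 32 libraries was sequenced in pairs by the submitters. Per the submitters' processing notes the tools were STAR and Cuffdiff and the build mm10; their order and versions are not given in the sources used here. The authors deposited FPKM rounded to 2 decimals; the unit is taken from the table's name and its values. Each column was matched to a sample by its title, and 0 columns of other samples were present. Positions came from GENCODE M21 by Ensembl ID, which matched 99.4% of rows. Depth was inferred from the spacing of low FPKM values, of which 81.4% to 92.2% fell within 0.2 of whole fragments (40% would by chance).

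Tests used R 4.3.3 and limma 3.58.1 on log2(FPKM + 1), fitting 16 group means with lmFit, then contrasts.fit and eBayes (trend), with 16 residual degrees of freedom and 26 comparisons. The model was tested on simulated data for KO against WT at day 6 among 16276 genes: over 5 simulations a mean of 97.4 of 100 genes changed by 2 and 90.4 of 100 changed by 1 on the log2 scale were recovered, with 11 false calls.

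Genes named are the 10 members, list genes described by family or role, and the 10 genes most like the members' mean profile. The members and lists were chosen with earlier results of these data known, and members' counts are descriptions. Alternatives were a pseudocount of 0.1, no filter, a mean of at least 5 FPKM, median-of-ratios rescaling, a minimum log2 change of 1, a replicate block, chromosome 8 centred on other chromosomes, the compared groups alone, and each library left out.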

Additional observations from a re-analysis of the deposited data

Results flagged for a closer look

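The day 0 to day 6 change of 8 genes differed between KO and WT by the interaction term of limma. On the log2(FPKM + 1) scale the difference was 2.86 for Tubb3, 2.42 for Gap43, 1.71 for Elavl4, 1.70 for Stmn2, 1.67 for Elavl3, 1.40 for Map2, 1.09 for Dcx and 0.83 for Stmn3, all higher in KO as signed values. For Stmn2 this was a smaller fall in KO, since its level dropped in both lines. Differences between KO and WT at day 0 enter these values, as for Map2, which was lower in KO there (−0.95). Centring chromosome 8 left the Tubb3 value at 2.55.

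The same term differed between Dex and no Dex for 9 genes, all lower with Dex as signed values: Stmn2 fell further with Dex (−4.21 against −2.37), and Tubb3 changed by −0.27 with Dex and 0.03, not called, without. It was −1.84 for Stmn2, −1.02 for Elavl4, −1.01 for Nefm, −0.90 for Map2, −0.83 for Dcx, −0.76 for Elavl3, −0.69 for Gap43, −0.50 for Nefl and −0.30 for Tubb3. The day 0 libraries labelled Dex differed from those without Dex before organoid culture, and that difference enters these values. Groups of 2 libraries were not examined for outlying libraries.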

How the results depend on the processing

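With a minimum log2 change of 1, the count of genes called was 0, 1, 0 and 5 for KO against WT at days 0, 2, 4 and 6, 0 on each day for no Dex against KO, 0, 0, 0 and 1 for Dex against no Dex, and 0, 0, 0 and 3 for Dex against WT. It was 5 in WT and 6 in Dex for day 6 against day 0, 4 in WT, 5 in KO, 5 in no Dex and 4 in Dex for day 6 against day 4, and 3 for the interaction with Dex. Dcx and Elavl4 were both among those counted for KO against WT at day 6. They were also counted for day 6 against day 4 in KO and no Dex. Elavl4 alone was counted in Dex for day 6 against days 0 and 4, and for the interaction with Dex. Of all tested genes, that minimum called 1.37 to 10% for KO against WT, 0.233 to 2.03% for no Dex against KO, 0.467 to 1.52% for Dex against no Dex, 0.977 to 5.9% for Dex against WT, 28.1 to 34% for day 6 against day 0, 10 to 12.1% for day 6 against day 4, and 3.27% for the interaction with Dex. With the compared groups alone it was 3 for KO against WT at day 0, 1 for no Dex against KO at day 2 and 4 for Dex against WT at day 2, where that fit has fewer libraries to estimate the spread. The share of all tested genes called is not given for this setting or those that follow. Whether a lost call is particular to the 10 genes therefore cannot be read from these counts. A mean of at least 5 FPKM left 7 of the 10 genes and gave 5 for KO against WT at day 6 and 5 for its interaction. Median-of-ratios rescaling gave 1 for no Dex against KO at day 2 and turned Tubb3 in no Dex between days 0 and 6 to −0.21; centring chromosome 8 turned Tubb3 in KO against WT at day 4 to −0.19; the cause was not tested. Leaving out 1 library at a time gave 1 to 2 genes for no Dex against KO at day 2, 2 to 3 for Dex against no Dex at day 0 and 3 to 5 at day 4; each of the other counts stayed within 1.5 times its value, and at day 6 KO against WT kept 8 and Dex against no Dex 10. Same-numbered libraries of 120 pairs of groups deviated together with r from −0.088 to 0.125 (median 0.003). No pairing by number was apparent over all genes, but this check cannot exclude that libraries shared a culture or a batch. The replicate block kept all 26 counts within 1.5 times; of single genes it gained 3 calls (Elavl4 in KO against WT at day 4, 0.24; Elavl3 in no Dex against KO at day 0, −0.17; Stmn3 in the interaction with Dex, −0.14) and lost 2 (Gap43 in Dex against no Dex at day 2, 0.20; Nefl in Dex against WT at day 0, 0.12). With 0.1 added in place of 1, the changes of Dcx, Map2 and Elavl4 were larger, with Dcx at day 6 moving to 2.62 for KO against WT and −1.75 for Dex against no Dex. Depth is an estimate, and levels near 3 fragments, as of Dcx at day 0, carry little information on change.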
